A study of Rattus norvegicus with 6 samples.

Results

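Bile acid receptors and oxysterol enzymes are described here across dorsal root ganglion libraries of rats with painful diabetic neuropathy (PDN) and of control rats. The 9 genes were chosen by name from a table of 22536 genes, and all 9 were found. They are the receptor genes Gpbar1, S1pr2, Nr1h4, Nr1h2, Nr1h3 and Vdr and the enzyme genes Cyp27a1, Cyp7b1 and Cyp46a1. RNA was sequenced in 3 PDN libraries and 3 control libraries of male rats, from tissue that the labels call sensory neuron and that the series title places in the dorsal root ganglion. The labels number the replicates without saying that they come from separate rats, so p-values measure only the spread between these libraries, which may be technical. The sources used here do not give strain, age, how diabetes was induced or what the controls received, and no library of a rat given hyodeoxycholic acid, the bile acid in the series title, is analysed here. Levels are FPKM, fragments scaled to transcript length and library size, as the authors deposited them.

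Bile acids are made from cholesterol, and oxysterols are cholesterol molecules with an added oxygen group, some of which are intermediates on that route. Bile acids act on the membrane receptor TGR5 (Gpbar1), on the sphingosine 1-phosphate receptor 2 (S1pr2), and on nuclear receptors that bind DNA and change transcription, FXR (Nr1h4) and, for lithocholic acid, the vitamin D receptor (Vdr). Oxysterols are ligands of the liver X receptors LXR alpha (Nr1h3) and LXR beta (Nr1h2), which switch on genes of cholesterol export and lipid synthesis. The enzymes are cytochromes P450: Cyp27a1 adds a hydroxyl group to the cholesterol side chain in mitochondria, Cyp7b1 hydroxylates the products at another carbon, and Cyp46a1 makes 24S-hydroxycholesterol, best known in neurons of the brain.

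The promoters of 4 of the members, which include both LXR genes and both enzyme genes for which the RefSeq table (build GRCr8) holds one, are shown because the LXR genes had unlike levels and the enzyme genes had lower estimates in PDN. Each holds 250 bases before and 50 bases after a transcript's start. Capitals mark the letters CCGGAAG, the core bound by ETS family factors, in Nr1h2, AGGTCA, the half-site of many nuclear receptors, in Cyp27a1, and GGGCGG, the GC box, in Cyp46a1, on either strand. Nr1h3 holds none of these letters.
Nr1h2, chr1:104183814-104184113, minus strand: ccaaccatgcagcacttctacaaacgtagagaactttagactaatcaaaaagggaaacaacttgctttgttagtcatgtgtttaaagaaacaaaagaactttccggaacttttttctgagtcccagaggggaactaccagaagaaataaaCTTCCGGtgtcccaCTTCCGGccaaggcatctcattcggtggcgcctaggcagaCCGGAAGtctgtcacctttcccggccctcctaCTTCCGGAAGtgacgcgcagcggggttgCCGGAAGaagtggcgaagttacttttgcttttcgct
Nr1h3, chr3:97623180-97623479, minus strand: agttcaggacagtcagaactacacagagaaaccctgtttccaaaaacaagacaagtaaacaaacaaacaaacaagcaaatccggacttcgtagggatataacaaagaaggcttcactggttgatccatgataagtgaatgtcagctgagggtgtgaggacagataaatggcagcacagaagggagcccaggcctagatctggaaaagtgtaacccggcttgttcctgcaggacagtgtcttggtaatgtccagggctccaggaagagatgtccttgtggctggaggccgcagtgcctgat
Cyp27a1, chr9:83713282-83713581, plus strand: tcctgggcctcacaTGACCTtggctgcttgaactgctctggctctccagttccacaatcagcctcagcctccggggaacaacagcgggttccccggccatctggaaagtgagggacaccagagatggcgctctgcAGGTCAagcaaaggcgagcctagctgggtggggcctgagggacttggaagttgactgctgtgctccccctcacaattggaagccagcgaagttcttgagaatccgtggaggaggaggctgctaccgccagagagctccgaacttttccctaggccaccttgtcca
Cyp46a1, chr6:133011740-133012039, plus strand: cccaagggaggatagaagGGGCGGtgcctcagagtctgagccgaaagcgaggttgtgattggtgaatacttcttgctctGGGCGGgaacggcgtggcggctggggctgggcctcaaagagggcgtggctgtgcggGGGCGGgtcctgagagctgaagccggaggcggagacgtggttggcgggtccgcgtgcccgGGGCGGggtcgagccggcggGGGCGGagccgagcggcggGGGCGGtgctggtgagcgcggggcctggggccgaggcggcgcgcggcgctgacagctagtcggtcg

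The 4 windows differ in composition. The Nr1h2 window holds 6 matches to CCGGAAG, 3 on each strand, of which 1 forward and 1 reverse match overlap. Of 33469 promoters of the same length, 8.75% hold at least 1 match and 2 promoters, Nr1h2 included, hold at least 6. The Cyp46a1 window holds 6 matches to GGGCGG, all on the forward strand, and 36 CpG dinucleotides, more than 94.6% of the promoters. At least 1 GGGCGG was found in 33.1% of promoters and at least 6 in 1.15%. The Cyp27a1 window holds 2 matches to AGGTCA, 1 on each strand, a number reached by 1.81% of promoters, and 9 CpG. The Nr1h3 window holds 4 CpG, where the median promoter holds 7, against 15 in Nr1h2. None of the 7 member promoters in the table holds TATAAA, which 14.2% of promoters hold. The letters marked in each gene are those with matches in its window, and each share was taken at that gene's own count. Nothing is therefore read from how few promoters reach it. These matches describe the letters only, and binding was not measured.

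The deposited values imply 51857000 to 62787000 fragments per library, if the constant linking the deposited whole numbers to FPKM is a fragment number. That reading was not checked. The libraries had 13093 to 13286 genes at an FPKM of at least 1. All 12 sensory neuron markers were measured at high levels, with a summed FPKM of 4720.1 to 5524.9 in PDN and 4977.1 to 5585.9 in controls. PDN 3 and control 2 stood apart by skeletal muscle RNA, at a summed FPKM of 148.7 in PDN 3 and 461.3 in control 2 over 5 muscle genes, against 28.5 in PDN 1 and at most 2.02 in the other 3 libraries, so member values are also given without both. Liver and fat markers were near 0, with Alb at no more than 0.309 FPKM, Adipoq at no more than 0.755 FPKM and Lep listed at 0 in all 6 libraries. The hepatocyte markers summed to 2.86 to 4.33 FPKM in PDN and 2.99 to 3.28 in controls, with Serpina1 the largest part in every library, at 2.66 to 4.15 FPKM in PDN and 2.44 to 2.80 in controls.

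Among the members, Nr1h2 was by far the most abundant, and Gpbar1 and Nr1h4 were close to the floor of the measurement. By mean FPKM over the 6 libraries the order was Nr1h2 (25.3), Cyp27a1 (6.35), S1pr2 (6.02), Nr1h3 (3.51), Cyp46a1 (2.78), Cyp7b1 (1.29), Vdr (0.626), Nr1h4 (0.142) and Gpbar1 (0.0132). Nr1h2 ranked 2976 among the 22536 genes and Nr1h3 ranked 10317. Each gene lay above the next in 6 of 6 libraries, with 2 exceptions. Cyp27a1 lay above S1pr2 in 2 of 3 PDN and 3 of 3 control libraries, and Nr1h3 lay above Cyp46a1 in 3 of 3 PDN and 2 of 3 control libraries, so these neighbours were not separated beyond their spread.

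**Figure D1:**
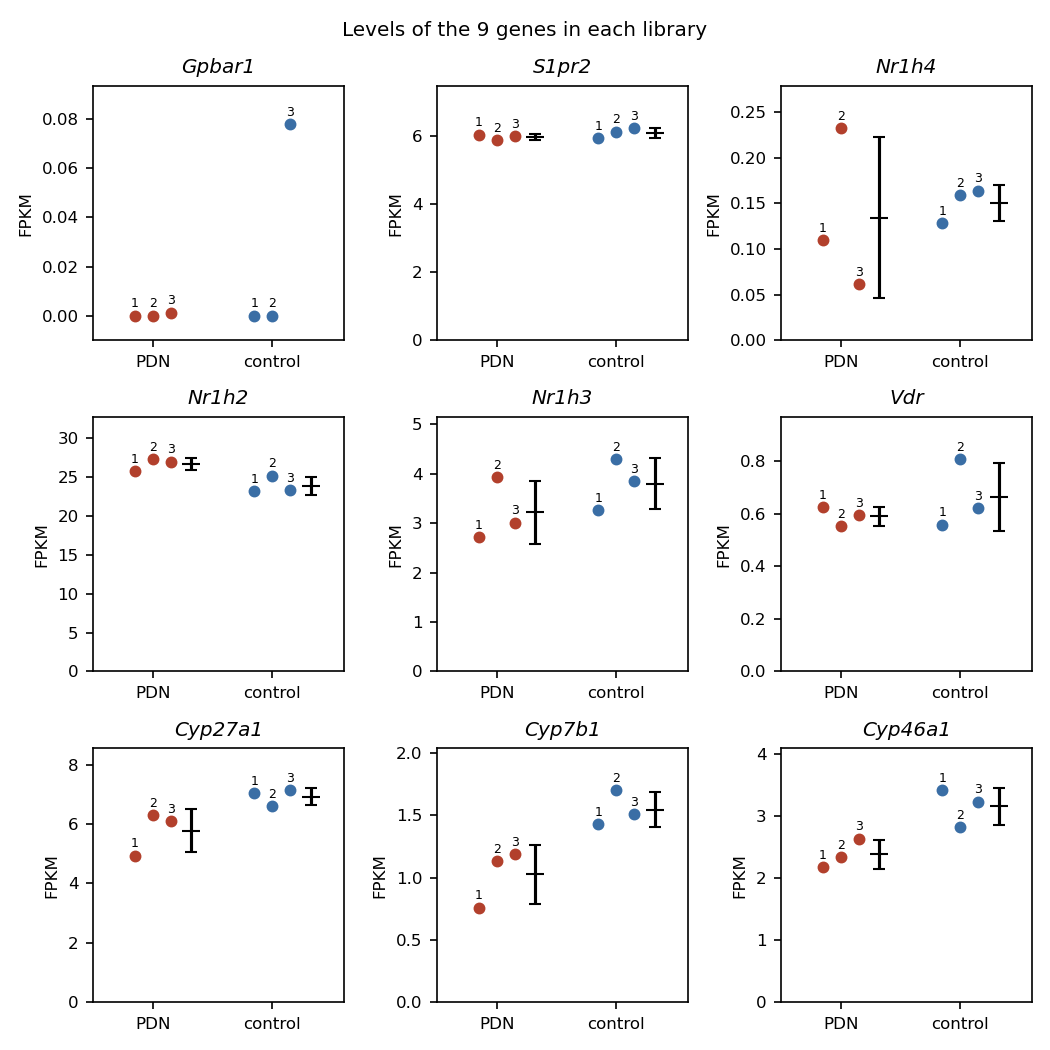
FPKM of each of the 9 genes in PDN and control libraries, 1 panel per gene with its own linear axis. Points are libraries labelled by replicate number, and black bars are the mean with the SD over 3 libraries, left out for Gpbar1, which was listed at 0 in 4 libraries. The 3 PDN values lie below the 3 control values in Cyp27a1, Cyp7b1 and Cyp46a1 and above them in Nr1h2.

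The main comparison asked whether the members differ between PDN and control ganglia. All 3 enzyme genes had lower and Nr1h2 had higher estimates in PDN, and no member passed the test over all genes. The test used limma on log2(FPKM + 1) of every gene that reached an FPKM of 1 in 3 or more libraries, with p-values adjusted by Benjamini-Hochberg over the 13282 genes tested. This filter kept 6 members, namely S1pr2, Nr1h2, Nr1h3, Cyp27a1, Cyp7b1 and Cyp46a1. Of these, 0 passed an adjusted p of 0.05 in limma, as did 0.0% of all tested genes, and each had an adjusted p of 0.999. An unadjusted p under 0.05 was found for 3 members (Nr1h2, Cyp7b1 and Cyp46a1), and for 4.72% of all genes. Of the 3, Nr1h2 was higher in PDN, as were 1.83% of all genes at that p, and Cyp7b1 and Cyp46a1 were lower, as were 2.89%. The members were chosen with earlier results of these data known, so nothing is read from that count.

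Of the membrane receptors, S1pr2 was evenly expressed and Gpbar1 was barely detected. S1pr2 (ENSRNOG00000020653, chromosome 8, 21984914 to 21995806 as the file gives it, without a build) couples sphingosine 1-phosphate and conjugated bile acids to G proteins. Its FPKM was 6.03, 5.86 and 5.99 in PDN 1 to 3, against 5.92, 6.11 and 6.21 in controls 1 to 3. The groups overlapped, and the 6 values stayed within a range of 5.86 to 6.21. The difference was -0.02 ± 0.07 (SE) on the log2 scale. Its 95% interval ran from -0.19 to 0.14, and limma's adjusted p was 0.999. Gpbar1 (ENSRNOG00000058260, chromosome 9, 81559605 to 81560594), whose product raises cAMP through Gs, was listed at 0 in PDN 1 and PDN 2 and at 0.00126 FPKM in PDN 3, against 0 in controls 1 and 2 and 0.0779 in control 3. These values are too low for a comparison.

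Of the nuclear bile acid receptors, neither reached an FPKM of 1 in any library. Nr1h4 (ENSRNOG00000007197, chromosome 7, 30003429 to 30162056), the main bile acid sensor of liver and gut, was at 0.110, 0.232 and 0.0613 FPKM in PDN, against 0.128, 0.159 and 0.164 in controls. The highest and the lowest values were both PDN libraries. Vdr (ENSRNOG00000054420, chromosome 7, 139342063 to 139394166) was at 0.624, 0.552 and 0.594 FPKM in PDN, against 0.558, 0.807 and 0.622 in controls. The PDN values lay within the control range except PDN 2, just below it. In the fit without the filter, Vdr differed by -0.06 ± 0.07 (SE) and Nr1h4 by -0.02 ± 0.06, with adjusted p-values of 0.97 and 0.983 in limma.

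The LXR genes had unlike levels and opposite estimates. Nr1h2 (ENSRNOG00000019812, chromosome 1, 100554544 to 100559942), the LXR found in most tissues, was at 25.8, 27.3 and 27.0 FPKM in PDN, against 23.2, 25.2 and 23.3 in controls. Every PDN value lay above every control value, by a narrow margin between PDN 1 and control 2. Its mean was 26.7 ± 0.824 FPKM in PDN libraries and 23.9 ± 1.13 in control libraries (SD over n = 3 libraries in each group). The difference was 0.15 ± 0.06 (SE) on the log2 scale, with an unadjusted p of 0.0479 and an adjusted p of 0.999 in limma. Nr1h3 (ENSRNOG00000013172, chromosome 3, 80004130 to 80012750), the LXR richest in liver, fat and macrophages, was at 2.72, 3.93 and 3.01 FPKM in PDN, against 3.26, 4.29 and 3.85 in controls. The groups overlapped, since PDN 2 lay above controls 1 and 3. Its difference was -0.19 ± 0.14 (SE). Its 95% interval ran from -0.51 to 0.13, and limma's adjusted p was 0.999. Without control 2 and PDN 3 it was -0.0848, without PDN 1 it was -0.103 and without PDN 2 it was -0.307.

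The balance of the LXR genes was also compared within each library, where library scaling largely cancels. Nr1h2 had 9.48, 6.95 and 8.95 times the FPKM of Nr1h3 in PDN 1 to 3, and 7.13, 5.88 and 6.07 times in controls 1 to 3. PDN 2 lay below control 1 in this ratio, so the groups overlapped. On the log2 scale with a pseudocount of 1 the ratio was 2.72 ± 0.176 in PDN and 2.38 ± 0.110 in controls (SD over n = 3 libraries in each group), a difference of 0.34. On this scale PDN 2, at 2.52, lay just above control 1, at 2.51, so these tested values did not overlap, unlike the plain ratio. An exact two-sided permutation test of them gave p = 0.1, the smallest that 3 against 3 libraries allow. With a pseudocount of 0.1 the exact p was 0.2.

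**Figure D2:**
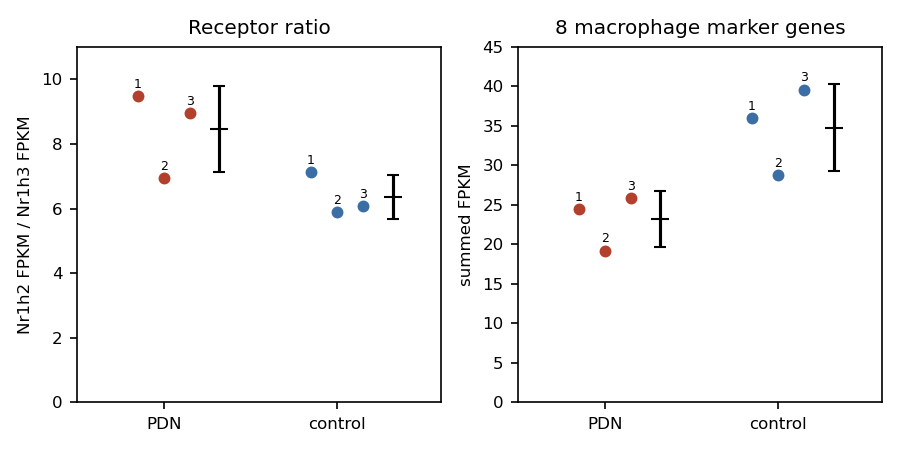
Left, Nr1h2 FPKM divided by Nr1h3 FPKM, and right, the summed FPKM of 8 macrophage markers, in each PDN and control library. Points are libraries labelled by replicate number, with the mean and the SD over 3 libraries beside them. The receptor ratio overlaps between the groups, and the macrophage sum is 19.2 to 25.9 in PDN and 28.8 to 39.6 in controls.

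The 3 enzyme genes had lower estimates in PDN, and in each the PDN libraries lay below the control libraries. Cyp46a1 (ENSRNOG00000007147, chromosome 6, 132242328 to 132273787), the cholesterol 24-hydroxylase, was at 2.18, 2.34 and 2.64 FPKM in PDN, against 3.42, 2.83 and 3.24 in controls. The closest values were PDN 3 and control 2, the muscle-rich libraries. Its mean was 2.39 ± 0.236 FPKM in PDN libraries and 3.16 ± 0.300 in control libraries (SD over n = 3 libraries in each group), 24.6% lower in PDN. The difference was -0.30 ± 0.10 (SE). Its 95% interval ran from -0.53 to -0.06, with an unadjusted p of 0.0196, while limma's adjusted p was 0.999. It was -0.41 without control 2 and PDN 3, and -0.357 to -0.253 when each library was left out.

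Cyp7b1 (ENSRNOG00000009730, chromosome 2, 102701903 to 102871257), the oxysterol 7-alpha-hydroxylase, was at 0.759, 1.13 and 1.19 FPKM in PDN, against 1.43, 1.70 and 1.51 in controls. PDN 1 was the only library under an FPKM of 1, and the gene would have passed the filter on the 3 controls alone. The mean was 1.03 ± 0.235 FPKM in PDN libraries and 1.55 ± 0.139 in control libraries (SD over n = 3 libraries in each group), 33.5% lower in PDN. The difference was -0.33 ± 0.12 (SE), with an unadjusted p of 0.0265 and an adjusted p of 0.999 in limma. With a pseudocount of 0.1 it was -0.565, since a pseudocount of 1 is about as large as the level itself.

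Cyp27a1 (ENSRNOG00000017188, chromosome 9, 81968332 to 81998169), the sterol 27-hydroxylase, which starts the alternative route of bile acid synthesis and is also active in macrophages, was at 4.94, 6.30 and 6.10 FPKM in PDN, against 7.04, 6.60 and 7.13 in controls. PDN 1 was the lowest, and PDN 2 lay close under control 2. The mean was 5.78 ± 0.733 FPKM in PDN libraries and 6.93 ± 0.283 in control libraries (SD over n = 3 libraries in each group), 16.5% lower in PDN. The difference was -0.23 ± 0.10 (SE), with an unadjusted p of 0.051 while limma's adjusted p was 0.999. It was -0.138 without PDN 1.

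Groups that do not overlap were thus found in 4 of the 6 tested members, 3 lower and 1 higher in PDN, beside 9.93% of all tested genes, 6.24% lower and 3.69% higher. Across all genes tested, 56.6% had a lower estimate in PDN and the median difference was -0.02. Under median-of-ratios scaling 6756 genes were higher and 6526 lower. The median of the 6 tested members was -0.21. The members were chosen with earlier results of these data known, so nothing is read from this count or this median.

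**Figure D3:**
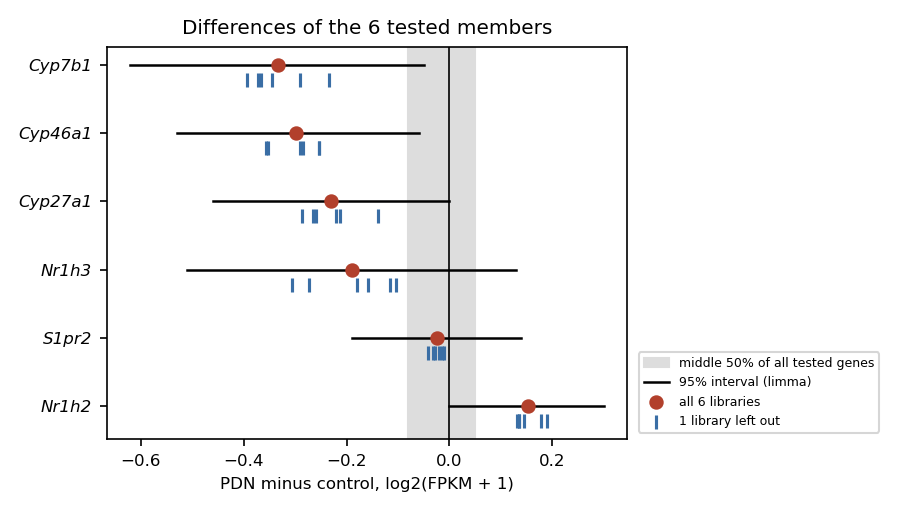
Difference between PDN and control on the log2(FPKM + 1) scale for the 6 tested members. Circles are estimates from all 6 libraries with their 95% intervals from limma, blue ticks are the estimates with 1 library left out, and the grey band holds the middle 50% of all tested genes. No tick crosses 0 for any of the 6 genes, and the ticks of Cyp27a1 reach from -0.287 to -0.138.

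The summed markers of macrophages and fibroblasts were also lower in PDN, without overlap of the groups. The 8 macrophage markers summed to 19.2 to 25.9 FPKM in PDN and 28.8 to 39.6 in controls, with 4 of the 5 tested markers (Csf1r, Adgre1, Aif1 and Cx3cr1) lower without overlap of the groups. The fifth, Mrc1, averaged 4.04 FPKM in PDN and 3.87 in controls. Of the 3 markers below the filter, Cd163 averaged 0.930 FPKM in PDN and 0.508 in controls, Cd14 0.830 in PDN and 0.742 in controls, and Cd68 0.582 in PDN and 0.685 in controls. The 6 fibroblast markers summed to 317.7 to 359.5 in PDN and 369.8 to 411.3 in controls, with 6 of 6 lower in estimate and 2 without overlap. No marker of either list was at 0 in all libraries. No tested marker of any cell type passed an adjusted p of 0.05 in limma. Over all tested genes, 6.24% were lower and 3.69% higher without overlap of the groups. The sensory neuron sums overlapped, with 6 of 12 markers lower, and so did the sums of satellite glia (218.5 to 234.2 in PDN, 219.6 to 265.8 in controls), Schwann cells (3300.3 to 3940.7 in PDN, 3303.3 to 4071.6 in controls) and endothelial cells (41.0 to 48.2 in PDN, 40.1 to 50.6 in controls). Of the 6 satellite glia markers 5 were lower in estimate, and Kcnj10 was lower without overlap. Of the 5 endothelial markers tested 4 were lower in estimate with a list median of -0.28, Cdh5 and Egfl7 without overlap, while Cldn5, the most abundant, was higher without overlap, at 26.8 FPKM in PDN and 21.6 in controls. Of the central nervous system markers, Olig2 was listed at 0 in all 6 libraries, while Slc17a7 was at 108.7 to 118.4 FPKM. Gad2, Aqp4 and Mog did not exceed 0.104, 0.733 and 0.359 FPKM. The part of these cell types in the lower enzyme estimates was not tested, and in bulk tissue fewer cells of a type and less RNA per cell cannot be told apart.

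The genes whose levels followed each member most closely were found by Pearson's r of log2(FPKM + 1) over the 6 libraries, among 11902 other tested genes whose FPKM averaged 1 or more and whose symbol is not a placeholder. With so many genes and 6 libraries a high r is readily reached, and it is given as a description with no p. For Cyp27a1 they were Lcp1, the leukocyte actin-bundling protein (r = 0.9893, Spearman's rho = 0.943), and Arhgap45, a GTPase-activating protein of blood cells (r = 0.9892, rho = 0.886). Lcp1 was at 35.9, 40.0 and 39.8 FPKM in PDN, against 43.4, 42.2 and 43.1 in controls. For Cyp46a1 they were Loxl1, which crosslinks elastin (r = 0.9888, rho = 1), and Lasp1, an actin-binding protein (r = 0.984, rho = 1). For Nr1h3 the closest was Idi1, an enzyme of cholesterol synthesis (r = 0.9966, rho = 1). Idi1 was at 30.9, 39.9 and 32.4 FPKM in PDN, against 34.5, 41.6 and 38.7 in controls. For Nr1h2 they were the transcription factor genes Klf11 and Klf16 (r = 0.9892 for both), and for S1pr2 they were Piga, of GPI anchor synthesis (r = 0.9773), and Tmtc4 (r = 0.963).

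The genes around these receptors and enzymes were followed in 11 lists of 121 gene symbols, of which 117 were found and 80 tested. None of the 80 passed an adjusted p of 0.05 in limma. An unadjusted p under 0.05 was found for 6 genes, 1 higher and 5 lower in PDN, or 7.5% against 4.72% of all genes, and 11 had groups that do not overlap, 3 higher and 8 lower, or 13.8% against 9.93% of all genes. Genes named from here on are among the 2 most abundant of each list, are listed at 0, or were chosen after their values were seen where this is said.

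LXR target genes, through which LXRs export cholesterol and make fatty acids, had 0 of 13 tested members past the adjusted threshold in either direction. In estimate 9 were lower and 4 higher, with a median difference of -0.11 where the median over all genes was -0.02, and it was -0.0602 with no filter. Apoe, the lipid carrier of glia, was at 1509.6 ± 78.7 FPKM in PDN libraries and 1500.4 ± 114.9 in control libraries (SD over n = 3 libraries in each group), and the fatty acid synthase gene Fasn at 99.2 ± 6.36 in PDN and 107.1 ± 4.60 in controls. An unadjusted p under 0.05 was found for Lpcat3, Abca1, Mylip and Scd, chosen after their values were seen, all 4 lower in estimate, where 2.89% of all genes were lower at that p. Scd, a fatty acid desaturase, had the smallest p of the list (0.00265), at 72.4, 69.0 and 84.7 FPKM in PDN, against 96.0, 98.7 and 98.1 in controls. Its groups did not overlap, and its difference was -0.37 ± 0.08 (SE) with limma's adjusted p at 0.744. Lpcat3, which remodels phospholipids, was at 13.5, 13.5 and 12.7 FPKM in PDN, against 17.5, 15.3 and 17.1 in controls, a difference of -0.31 ± 0.08 (SE) with an adjusted p of 0.792 in limma. Abca1, the cholesterol exporter, was at 26.1, 22.5 and 30.8 FPKM in PDN, against 33.4, 30.5 and 31.7 in controls, and PDN 3 lay within the control range. Abcg1, the partner exporter, also chosen after its values were seen, was at 24.8 ± 0.214 FPKM in PDN libraries and 24.5 ± 2.44 in control libraries.

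The partners of the nuclear receptors were all expressed. The RXR genes, whose products pair with FXR, LXRs and the vitamin D receptor on DNA, were led by Rxrb at 12.6 ± 2.61 FPKM in PDN libraries and 12.1 ± 1.05 in control libraries (SD over n = 3 libraries in each group), then Rxrg at 7.20 ± 2.35 in PDN and 8.71 ± 1.17 in controls. The median difference of the 3 RXR genes was 0.02, and it was -0.031 without PDN 1, 0.0485 without PDN 2, -0.0248 without PDN 3, 0.0402 without control 1 and -0.00999 without control 3. All 13 coregulators found were tested, with 9 higher and 4 lower in estimate, a median of 0.07 and 0 past the threshold. That median was 0.0165 without control 2, 0.112 without control 1 and 0.0347 without PDN 3 and control 2 together. Tbl1xr1, a subunit of corepressor complexes, was at 19.8 ± 0.190 FPKM in PDN libraries and 20.0 ± 1.19 in control libraries.

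Targets of FXR and of the vitamin D receptor were mostly below the filter. Of 8 FXR target genes found 3 were tested, 0 passed, and 2 were higher in estimate. Slc51b and Fgf19 were listed at 0 in all 6 libraries, and Nr0b2, the repressor SHP, chosen after its values were seen, did not exceed 0.0608 FPKM. Abcb4, a phospholipid flippase, was at 8.59 ± 0.790 FPKM in PDN libraries and 8.03 ± 0.779 in control libraries (SD over n = 3 libraries in each group). Slc51a, a subunit of a bile acid and steroid transporter, was at 5.88 ± 0.744 in PDN and 6.27 ± 0.128 in controls, while its partner Slc51b was listed at 0. Of 11 vitamin D genes, 4 were tested and 0 passed, with 2 higher and 2 lower. Cyp24a1, the classical target of the vitamin D receptor, and Trpv5 were listed at 0 throughout. Spp1, osteopontin, was at 486.5 ± 17.3 FPKM in PDN libraries and 443.7 ± 87.8 in control libraries, and the calcium pump gene Atp2b1 at 71.4 ± 2.80 in PDN and 72.4 ± 3.46 in controls.

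Other steps of bile acid and oxysterol synthesis were partly present. Cyp7a1, the enzyme that starts the classical route in liver, was listed at 0 in all 6 libraries. Of 14 genes 6 were tested, 0 passed, and 5 of the 6 were lower in estimate, with a median of -0.07. That median was 0.00869 without PDN 1, -0.129 without PDN 2, -0.121 without control 1 and -0.0129 without control 2. Scp2, a sterol carrier of peroxisomes, was at 49.8 ± 4.60 FPKM in PDN libraries and 53.1 ± 6.97 in control libraries, and Hsd17b4, of peroxisomal beta-oxidation, at 33.6 ± 3.11 in PDN and 34.7 ± 0.913 in controls (SD over n = 3 libraries in each group). Ch25h, the cholesterol 25-hydroxylase, chosen after its values were seen, was the gene of this list with a higher estimate, at 2.82, 3.51 and 2.43 FPKM in PDN, against 2.32, 1.61 and 2.28 in controls. Its groups did not overlap, and its difference was 0.35 ± 0.14 (SE) with an unadjusted p of 0.0427 and an adjusted p of 0.999 in limma. Hsd3b7, which acts on the products of Cyp7b1 and was likewise chosen, was at 2.27, 3.86 and 4.12 FPKM in PDN, against 4.17, 4.21 and 4.50 in controls. Gpr183, the receptor for the oxysterol made by Ch25h and Cyp7b1 in turn, also chosen so, was at 1.47 ± 0.231 FPKM in PDN libraries and 1.31 ± 0.0618 in control libraries.

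Genes that sense or remove oxysterols had 12 of 15 symbols tested, 0 past the threshold, 5 higher and 7 lower, and a median of -0.05. That median was -0.0214 without control 2 and -0.0185 with no filter. Insig1, which holds back sterol synthesis, was at 93.1 ± 4.93 FPKM in PDN libraries and 98.2 ± 5.02 in control libraries, and Npc2, of lysosomal cholesterol export, at 80.5 ± 3.50 in PDN and 80.5 ± 6.17 in controls (SD over n = 3 libraries in each group). Bile acid transporters had 4 of 9 tested, 0 passed, and all 4 were lower in estimate with a median of -0.11. Without PDN 1 that median was -0.0309, and without PDN 3 it was -0.19. Slco1a4, an organic anion carrier of brain vessels, was at 11.6, 24.4 and 23.8 FPKM in PDN, against 18.5, 27.2 and 23.2 in controls, so PDN 1 alone lay below the others. Abcc4 was at 6.82 ± 0.669 FPKM in PDN libraries and 6.98 ± 0.227 in control libraries. The uptake carrier Slc10a2 was listed at 0.

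Of 7 genes of other receptors reported to respond to bile acids, 4 were tested, 0 passed and all 4 were higher in estimate, with a median of 0.07 that was 0.0393 without PDN 3. The other 3, Nr1i2, Fpr1 and Nr1i3, were below the filter, with means over the 6 libraries of 0.00717, 0.0286 and 0.321 FPKM. The muscarinic receptor gene Chrm2 was at 9.32 ± 0.570 FPKM in PDN libraries and 8.89 ± 1.49 in control libraries (SD over n = 3 libraries in each group). Of the sphingosine 1-phosphate genes 8 of 11 were tested, 0 passed, 2 were higher and 6 lower, with a median of -0.06 that was -0.0269 without control 2 and -0.0381 without control 3. S1pr4, S1pr5 and Mfsd2b were below the filter. Sgpp2, a phosphatase that removes the ligand, was at 35.5 ± 0.586 FPKM in PDN libraries and 38.1 ± 2.86 in control libraries. S1pr3 was at 27.5 ± 3.69 FPKM in PDN libraries and 31.1 ± 2.94 in control libraries, well above the level of S1pr2. Of 10 genes from Gs to cAMP targets all were tested, 0 passed, and 6 were higher and 4 lower, with a median of 0.03. That median was 0.0431 without PDN 1, -0.00203 without PDN 2, 0.0162 without control 1 and 0.0134 without control 2. Gnas, which encodes the Gs alpha subunit and has 2 rows in the table, of which the higher was used, was at 223.4 ± 19.1 FPKM in PDN libraries and 198.7 ± 17.8 in control libraries. Prkar1a, a regulatory subunit of protein kinase A, was at 209.0 ± 7.36 in PDN and 205.2 ± 2.56 in controls. Trpa1, an irritant channel linked to Gpbar1 in mouse itch neurons and chosen after its values were seen, was at 20.5, 24.8 and 28.6 FPKM in PDN, against 36.0, 29.7 and 31.7 in controls. Its groups did not overlap, with a difference of -0.39 ± 0.13 (SE), an unadjusted p of 0.0161 and an adjusted p of 0.999 in limma.

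**Figure D4:**
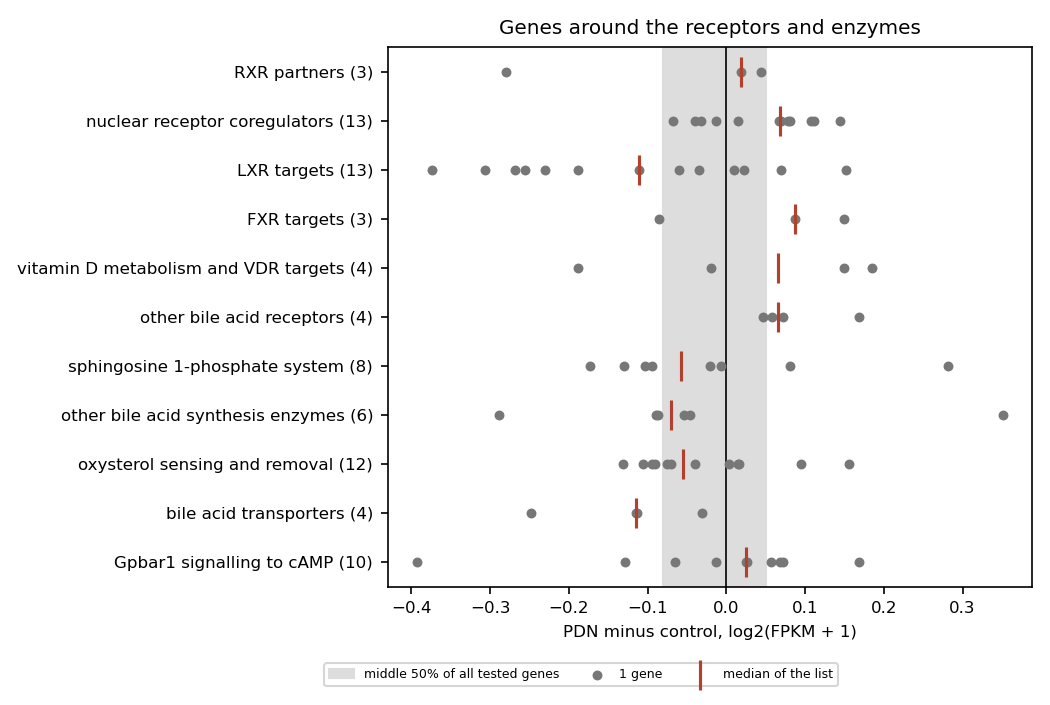
Difference between PDN and control on the log2(FPKM + 1) scale for the tested genes of 11 lists, with the number tested in parentheses. Grey points are genes, red bars are list medians and the grey band holds the middle 50% of all tested genes. The LXR target median lies at -0.11, and the coregulator median at 0.07, or 0.0165 without control 2.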

How the data were processed

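RNA was sequenced in 3 PDN and 3 control libraries of male rats. Per the labels' protocols, strand-specific libraries were made from total RNA. FPKM were computed and deposited by the authors, and their aligner, quantifier, annotation and build are not stated in the labels. The second deposited table, named for read counts, holds whole numbers treated as a score, because 54.7% to 55.1% of its values over 1000 equal FPKM times genomic span times 1 constant per library, within a tolerance of 0.001. No count model was run, and no counting interval is given.

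A gene entered the fit where 3 or more libraries reached an FPKM of 1. The model was limma 3.58.1 (R 4.3.3) on log2(FPKM + 1), using its intensity trend, with group alone as a factor and Benjamini-Hochberg adjustment at a threshold of 0.05. A log2 difference with a pseudocount of 1 understates changes of low genes. The fit was checked on simulated data with changes larger than those of the members, so the check does not cover differences of their size. The single ratio used an exact permutation test in scipy 1.17.1. The members, the lists and the tests were chosen with earlier results of these data known. Named genes are the members, the 2 most abundant tested genes of each list, the 2 genes most like each member that reached an FPKM of 1 in all libraries, and those said to be chosen after their values were seen; some genes that this rule names are not reported here. Promoters come from RefSeq (GRCr8), which matched 7 of 9 members by symbol. Alternatives covered the pseudocount, filters, scaling, the replicate number as a block, each library left out, both muscle-rich libraries left out, robust empirical Bayes and the whole-number table.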

Additional observations from a re-analysis of the deposited data

How the results depend on the processing

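The 6 tested members kept the sign of their differences and stayed past no adjusted threshold under every alternative run. For Nr1h2 the difference ran from 0.132 to 0.19, for Cyp46a1 from -0.41 to -0.237, for Cyp7b1 from -0.565 to -0.235, for Cyp27a1 from -0.296 to -0.138, for Nr1h3 from -0.307 to -0.0848 and for S1pr2 from -0.0412 to -0.00656. Their lowest adjusted p in limma over these alternatives was 0.752, for Cyp46a1 without PDN 3. The unadjusted p of Nr1h2 in limma, 0.0479 in the main fit, ran from 0.0209 under median-of-ratios scaling to 0.126 without control 3. It reached 0.0849 for Cyp7b1 without control 2 and 0.0631 for Cyp46a1 without control 1. Without both muscle-rich libraries the difference was 0.182 for Nr1h2, -0.351 for Cyp7b1, -0.296 for Cyp27a1 and -0.0245 for S1pr2. In that setting limma's unadjusted p was 0.102 for Nr1h2, 0.0737 for Cyp7b1 and 0.0171 for Cyp46a1. Cyp7b1 could not be fitted under the stricter filter, since it was below an FPKM of 1 in PDN 1. The Nr1h2 over Nr1h3 difference ran from 0.267 to 0.443.

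The count of 0 genes past the threshold was 1 with no filter, 1 with robust empirical Bayes, 2 in the whole-number table, 9 without both muscle-rich libraries, and 0 to 6 when each library was left out (4 without PDN 1, 6 without PDN 3, 3 without control 1, 2 without control 3); the cause was not tested, and none of these genes is a member. Same-numbered PDN and control libraries deviated together with correlations of 0.171, -0.12 and -0.0865, so the numbers were not taken as pairs. With the replicate block the count stayed at 0, and the members' adjusted p-values in limma ran from 0.769. The ratio difference of 0.342 had an exact paired permutation p of 0.25, the smallest that the paired test allows here.

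Of the list medians, FXR targets became -0.00872 with no filter and 0.000706 with the stricter filter, vitamin D genes -0.0196 with no filter and 0.00767 without control 3, sphingosine 1-phosphate genes -0.00616 and cAMP genes -0.000896 without both muscle-rich libraries, and cAMP genes -0.00203 without PDN 2. Median-of-ratios scaling moved the median over all genes to 0.00218, against -0.0163 as deposited. With 3 libraries a group, the member differences were not separable from the spread between libraries after adjustment over all tested genes. Gpbar1, listed at 0 in 4 libraries, allows no comparison.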
